A study of Mus musculus with 9 samples.

Results

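The genes described here encode the proteins of the mitochondrial ribosome. They were taken as every row of the deposited expression table whose symbol starts with Mrpl or Mrps followed by a number, which gave 77 genes of 20778 in the table. By symbol, 48 belong to the large subunit (Mrpl) and 29 to the small subunit (Mrps). All 77 passed the filter on low values, which asked for a mean of 10 or more across the 9 libraries.

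Bulk RNA was sequenced from 3 groups of 3 libraries, and all groups contained GL261, a mouse glioblastoma line that carried an mCherry label. The tumour group was resected from brains of 7-week-old male C57BL/6 mice, 14 days after 50000 cells had been implanted in the striatum. The labels name 5 mice and do not say which mouse gave which library. The 2D culture and the 3D bioink both held a penta-culture of GL261, seeded at 1000000 cells per ml, with primary astrocytes, microglia, pericytes and endothelial cells from brains of male C57BL/6 mice aged 6 to 10 weeks. It grew on a petri dish in the first case and in a fibrin gel in the second. No group carried a genetic alteration or drug that another lacked, per the labels. The gel was digested with collagenase II (600 U per ml, 3 h) and passed through a 70 µm mesh before RNA was extracted, a step the labels record for the bioink alone. GL261 is a single established line, and each library is a mixture of cell types, so a value describes the mixture. Fewer cells of a type and less RNA per cell cannot be told apart in such samples.

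Mitochondria keep a small genome that encodes a few subunits of the respiratory chain and the RNAs of their own ribosome. The proteins of that ribosome are encoded in the nucleus, made in the cytoplasm and imported, and assembled with the mitochondrial ribosomal RNAs into a large subunit, which forms peptide bonds, and a small subunit, which reads the message. Some of these proteins descend from bacterial ribosomal proteins, and others exist in mitochondria only. The mitochondrial ribosome makes membrane proteins of oxidative phosphorylation and is tethered to the inner membrane.

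Many promoters of these genes are CpG-rich and share motifs of factors linked to mitochondrial biogenesis, so stretches of 4 are shown. RefSeq promoter windows on GRCm38.p6 (the mm10 assembly), from 250 bases before to 50 after the annotated start, were found for 68 of the 77 genes. The 4 stretches below are the 120 bases before the start, 5′ to 3′ on the strand of the gene, and lie outside annotated exons. They were chosen to show 3 matches to the ETS motif CCGGAAG, the type of site bound by GABP, beside Mrpl41, which has none in its whole window. Capitals mark the match.
Mrpl58, chr11:115403632-115403751, plus strand: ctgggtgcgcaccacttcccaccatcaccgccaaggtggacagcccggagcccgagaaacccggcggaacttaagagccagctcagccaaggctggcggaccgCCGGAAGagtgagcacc
Mrps22, chr9:98601680-98601799, minus strand: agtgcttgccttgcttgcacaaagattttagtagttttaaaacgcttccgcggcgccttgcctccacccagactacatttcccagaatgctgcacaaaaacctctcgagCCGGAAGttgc
Mrpl34, chr8:71464806-71464925, plus strand: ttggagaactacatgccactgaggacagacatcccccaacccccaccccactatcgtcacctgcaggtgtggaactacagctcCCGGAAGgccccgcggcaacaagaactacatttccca
Mrpl41, chr2:24975099-24975218, minus strand: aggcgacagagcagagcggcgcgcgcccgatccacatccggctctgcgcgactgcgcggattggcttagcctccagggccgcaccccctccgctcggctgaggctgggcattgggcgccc

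Over the whole windows, searched on both strands, CCGGAAG was present in 24 of 68 members (35.3%), against 9.12% of all 27025 promoters in the table. The YY1 motif AAGATGGC was present in 12 of 68 (17.6%), against 2.88%, and it can share its first letters AAG with the end of the ETS motif. The NRF1 motif GCATGCG was present in 7 (10.3%), against 3.64%. The CCAAT box was at 38.2% against 37.9%, the SP1 motif GGGCGG at 50% against 35.9%, and the E-box CACGTG at 7.35% against 7.24%. The members' windows had a median GC content of 58.5% and a median of 21 CpG, against 52.7% and 7 over all promoters, and these shares were not matched for base composition. A match is a string of letters in a window and was not tested for binding.

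Some properties of the libraries touch every result below. The deposited values are whole numbers that were taken as normalized counts after rounding, and the depth behind them is unknown. The bioink library of replicate 1 stood apart, with an array weight of 0.236 in limma against 0.688 to 4.96 for the other 8. It had 67 genes at a value of 1 against 367 to 580 elsewhere. Tumour replicate 1 had a gap of the same kind, with 94 genes at a value of 3 against 231 to 475 elsewhere. Summed levels of 8 microglial markers were 18419 to 19162 in tumours, 663 to 744 in 2D culture and 1162 to 1175 in bioink, where Fcrls was at 0, and those of 8 macrophage and monocyte markers were 27787 to 28600, 1378 to 1473 and 1865 to 2120. Summed T cell markers (7 of 8 in the table) were 774 to 895, 258 to 292 and 289 to 305, with Cd2 at 0 in both cultures. Astrocyte markers were 5394 to 5815, 6098 to 6366 and 6519 to 6878, endothelial markers 5913 to 6253, 4785 to 5155 and 5668 to 8035, and pericyte markers 4260 to 4647, 1031 to 1079 (Kcnj8 and Vtn at 0) and 2829 to 3006. The part of this cell makeup in the differences below was not tested.

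The summed level of each subunit was lowest in the bioink and highest in 2D culture. The summed level of the 48 large-subunit genes was 32447, 33165 and 33229 in tumours. On the dish it was 38048, 38393 and 37895, and in the gel 17909, 17598 and 17950. For the 29 small-subunit genes the sums were 19973, 20374 and 19502 in tumours, 22927, 22694 and 22581 on the dish and 10108, 10631 and 10596 in bioink. No library of a group overlapped another group in either sum. The ratio of the large to the small sum was 1.62 to 1.70 in tumours, 1.66 to 1.69 in 2D culture and 1.66 to 1.77 in bioink, ranges that overlap. As a share of each library's summed values, scaled to 1000000, the large-subunit genes made up 1988 to 2035 in tumours, 2422 to 2463 in 2D culture and 1286 to 1322 in bioink, the same order. A sum gives most weight to abundant genes, such as Mrpl12, with means of 2932 in tumours and 4245 in 2D culture. Between those groups, 34 of the 48 large-subunit and 20 of the 29 small-subunit genes did not pass limma's threshold.

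**Figure D1:**
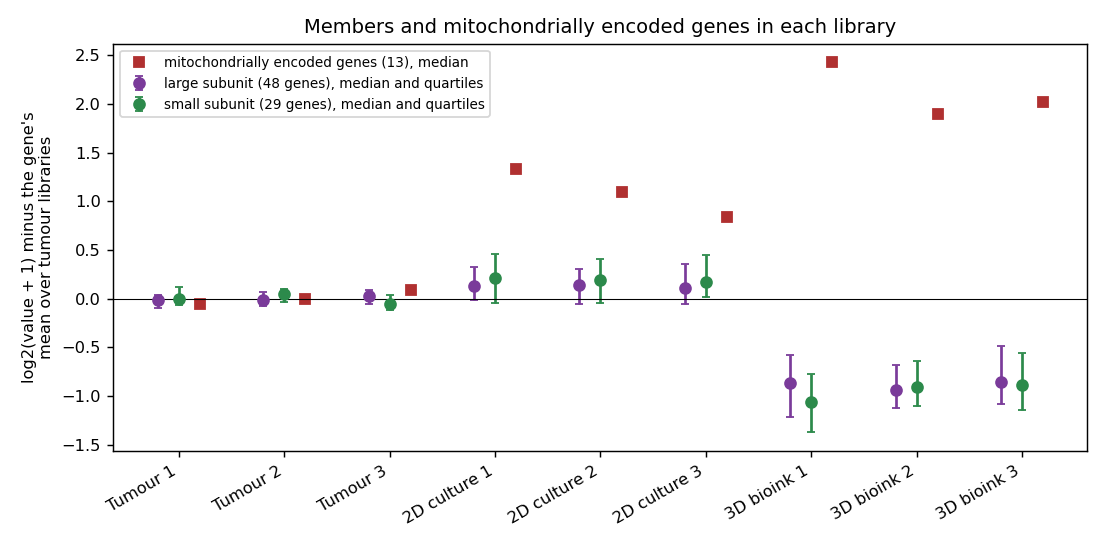
Medians per library of log2(value + 1) minus the gene's mean over the tumour libraries, with quartiles, for the 48 large-subunit and 29 small-subunit genes, and the median for 13 mitochondrially encoded genes (squares). The 3 bioink libraries lie between -1.06 and -0.85 for both subunits, while the mitochondrially encoded genes lie between 1.90 and 2.43 there.

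The comparison of bioink with tumours asks how close the gel comes to the tumour in the animal. Of the 48 large-subunit genes, 39 were lower in bioink, 1 was higher and 8 did not pass limma's threshold (Benjamini-Hochberg adjusted p under 0.05 over all 13773 genes tested), with a median log2 difference of -0.88. Of the 29 small-subunit genes, 25 were lower, 0 were higher (also 0 at an unadjusted p under 0.05) and 4 did not pass, with a median of -0.89. Over all genes tested, 37.3% were lower and 27.1% higher, with a median of -0.11. The groups did not overlap for 43 large-subunit and 24 small-subunit genes, against 67.6% of all genes tested. At least 2-fold lower values were seen for 15 large-subunit and 12 small-subunit genes, against 17.6% of all genes. Without the bioink library of replicate 1, 40 and 26 genes were lower, against 37.1% of all genes. All log2 differences are between group means of log2(value + 1), which understates changes of low genes.

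Transcript length and scaling moved with this difference, and their values stand beside it. Members have short transcripts, with a median of 1226 bases against 2754.25 for all genes tested. Among the fifth of tested genes with the shortest transcripts, which holds 50 of the 77 members, the median difference was -0.61 and 54.6% were lower. Among the fifth with the longest it was 0.45 and 19.6% were lower. After each library's trend with transcript length was removed, a step chosen after seeing the data, 27 large-subunit genes were lower (26 of them among the 39), with a median of -0.41. In the same fit, 17 small-subunit genes were lower, all of them among the 25, with a median of -0.48. Of all genes in that fit, 33.3% were lower and 26.8% higher. Scaling the libraries to equal sums changed the split over all genes from 27.1% higher and 37.3% lower to 35.5% and 27.8%, and moved the median of all genes from -0.11 to 0.14. The subunit medians were then -0.62 and -0.63.

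**Figure D2:**
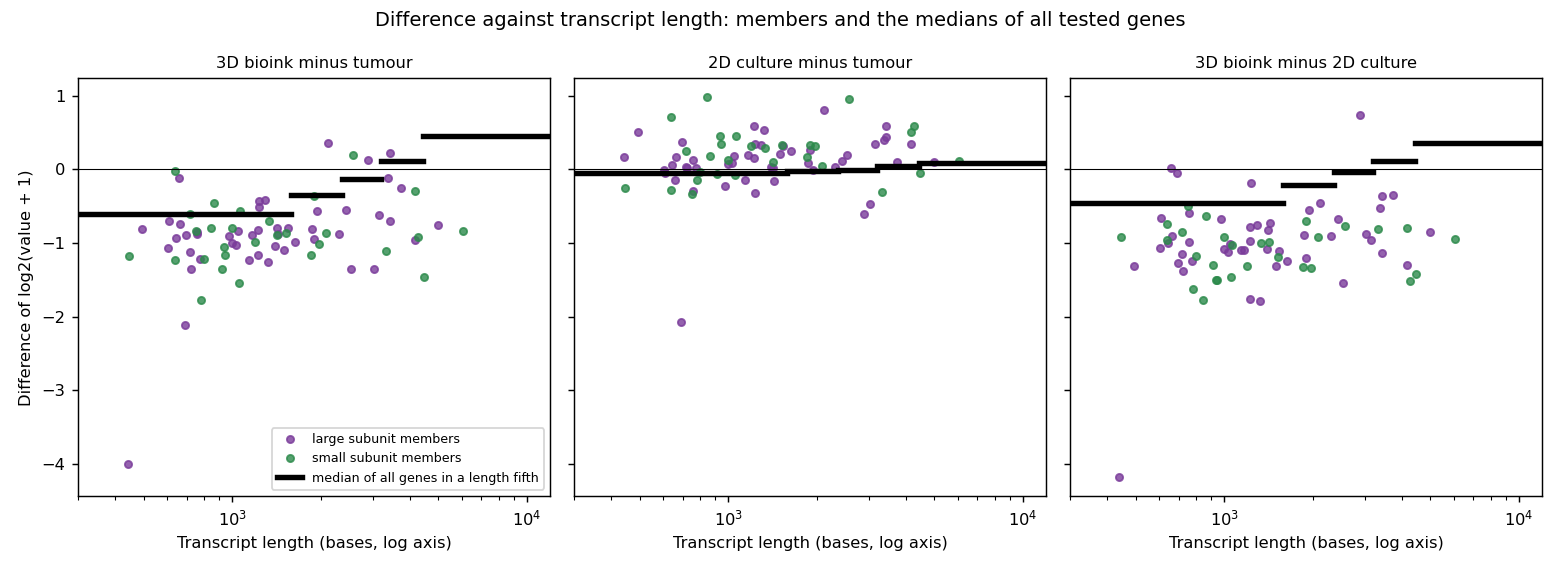
Log2 difference of each member against its transcript length in bases (log axis) for the 3 comparisons, with bars for the median of all tested genes in each of 5 equal groups by length. Bars rise from -0.61 to 0.45 for bioink minus tumour and from -0.46 to 0.36 for bioink minus 2D culture, and from -0.05 to 0.08 for 2D culture minus tumour; most members lie below the bars in the panels with bioink.

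Among large-subunit genes, Mrpl58, a peptidyl-tRNA hydrolase built into the ribosome that frees stalled chains, measured 1179, 1147 and 1177 in tumours and 457, 450 and 460 in bioink. The libraries of each group lay close together and far from the other group, a 2.56-fold lower level (log2 difference -1.36, SE 0.063, adjusted p = 9.00e-08). With the length trend removed the difference was -1.23. Mrpl22, a protein that lines the peptide tunnel, measured 867, 804 and 898 in tumours and 318, 320 and 362 in bioink (log2 difference -1.36, SE 0.084, adjusted p = 5.43e-07; -0.74 with the length trend removed). Mrpl32, which is cut by a mitochondrial protease before it joins the ribosome, measured 322, 264 and 361 in tumours and 162, 95 and 117 in bioink (log2 difference -1.36, SE 0.21, adjusted p = 2.66e-04). Every bioink value of these genes was below every tumour value.

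Mrpl12, part of the flexible stalk that recruits translation factors and a partner of the mitochondrial RNA polymerase, measured 2738, 3095 and 2962 in tumours and 1193, 1291 and 1191 in bioink. Its log2 difference was -1.26 (SE 0.062, adjusted p = 1.27e-07), and -0.80 with the length trend removed. Mrpl12 lies at chr11:120484613-120489065 on the plus strand of GRCm38 and overlaps the antisense transcript Gm16755. Mrpl41 fell by 1.22 on the log2 scale (SE 0.16, adjusted p = 8.52e-05), from 349, 337 and 341 to 115, 152 and 178, and was at -0.62 with the length trend removed. Mrpl44 had a log2 difference of -0.88 and Mrpl48 of -0.81, and Mrpl45, which holds the ribosome at the inner membrane, of -0.55, each past the threshold and without overlap of the groups; with the length trend removed they were -0.45, -0.50 and -0.40, still past it. Mrpl3, a core protein that binds the ribosomal RNA, measured 805, 741 and 560 in tumours and 662, 299 and 465 in bioink. Its groups overlapped and it did not pass (log2 difference -0.62, adjusted p = 0.053). It passed under 6 alternatives, with an adjusted p of 0.0045 when bioink replicate 1 was left out.

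**Figure D3:**
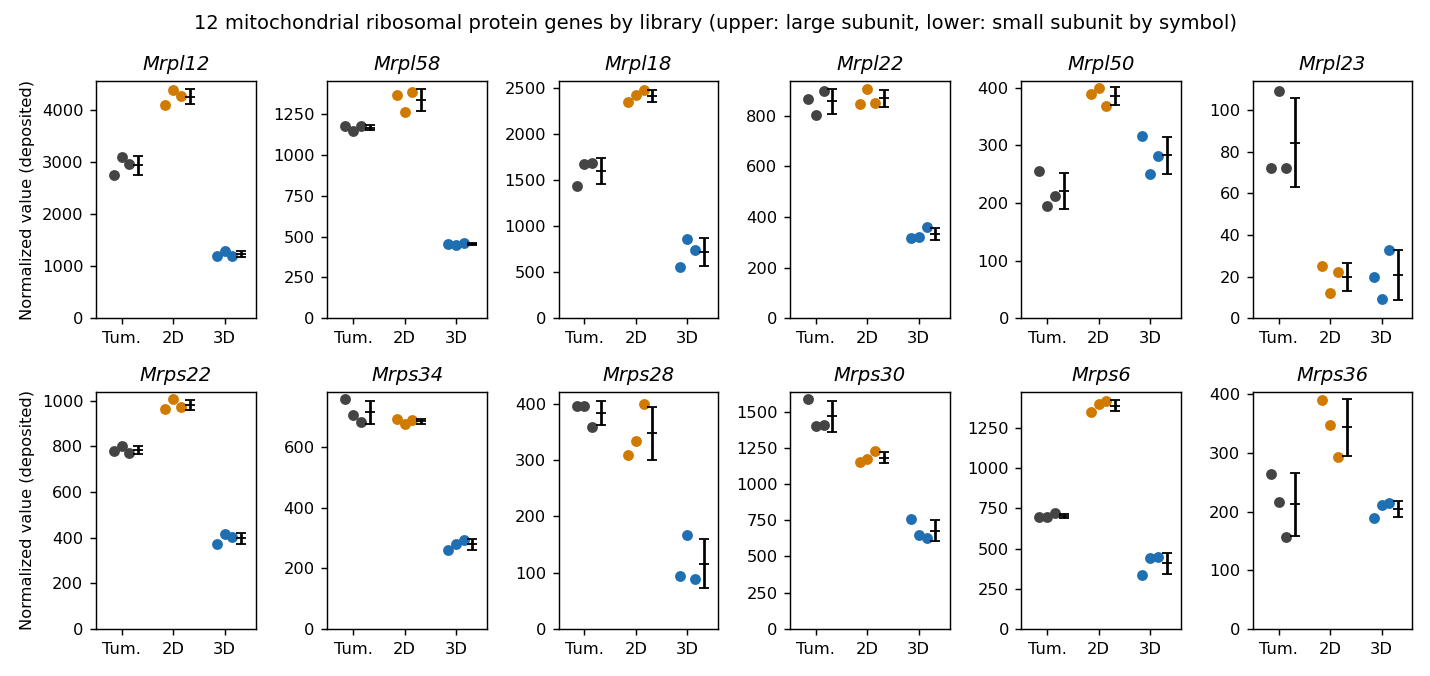
Deposited normalized values of 12 members in each library (points) with the group mean and SD (bars), large-subunit symbols above and small-subunit symbols below. The bioink points of Mrpl58 (450 to 460) lie far below the tumour points (1147 to 1179), whereas Mrps36 overlaps between those groups.

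In the small subunit, Mrps28 measured 396, 395 and 359 in tumours and 94, 166 and 88 in bioink, a 3.42-fold lower level (log2 difference -1.78, SE 0.23, adjusted p = 8.05e-05). The groups lay well apart. With the length trend removed the difference was -1.17. Mrps11 measured 311, 366 and 317 in tumours and 81, 125 and 143 in bioink (log2 difference -1.54, adjusted p = 9.55e-05; -1.0 with the length trend removed); it overlaps Mrpl46 on the opposite strand, so reads of the pair may not be separated. Mrps5, near the entry of the messenger RNA, measured 1775, 2135 and 2021 in tumours and 528, 916 and 750 in bioink (log2 difference -1.47, adjusted p = 3.77e-05).

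Mrps34, which is needed for a stable small subunit, measured 758, 705 and 683 in tumours and 261, 281 and 295 in bioink (log2 difference -1.36, SE 0.083, adjusted p = 5.34e-07). Mrps12, the counterpart of the bacterial protein at the decoding centre, measured 411, 446 and 393 against 170, 181 and 186 (log2 difference -1.21, adjusted p = 3.99e-06). With the length trend removed the differences were -0.78 for Mrps34 and -0.61 for Mrps12. Mrps22, a protein known from inherited mitochondrial disease, measured 778, 803 and 769 against 370, 416 and 403 (log2 difference -0.98, SE 0.073, adjusted p = 1.83e-06; -0.49 with the length trend removed). Mrps34 overlaps Mapk8ip3 on the opposite strand and Nme3 on its own strand.

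**Figure D4:**
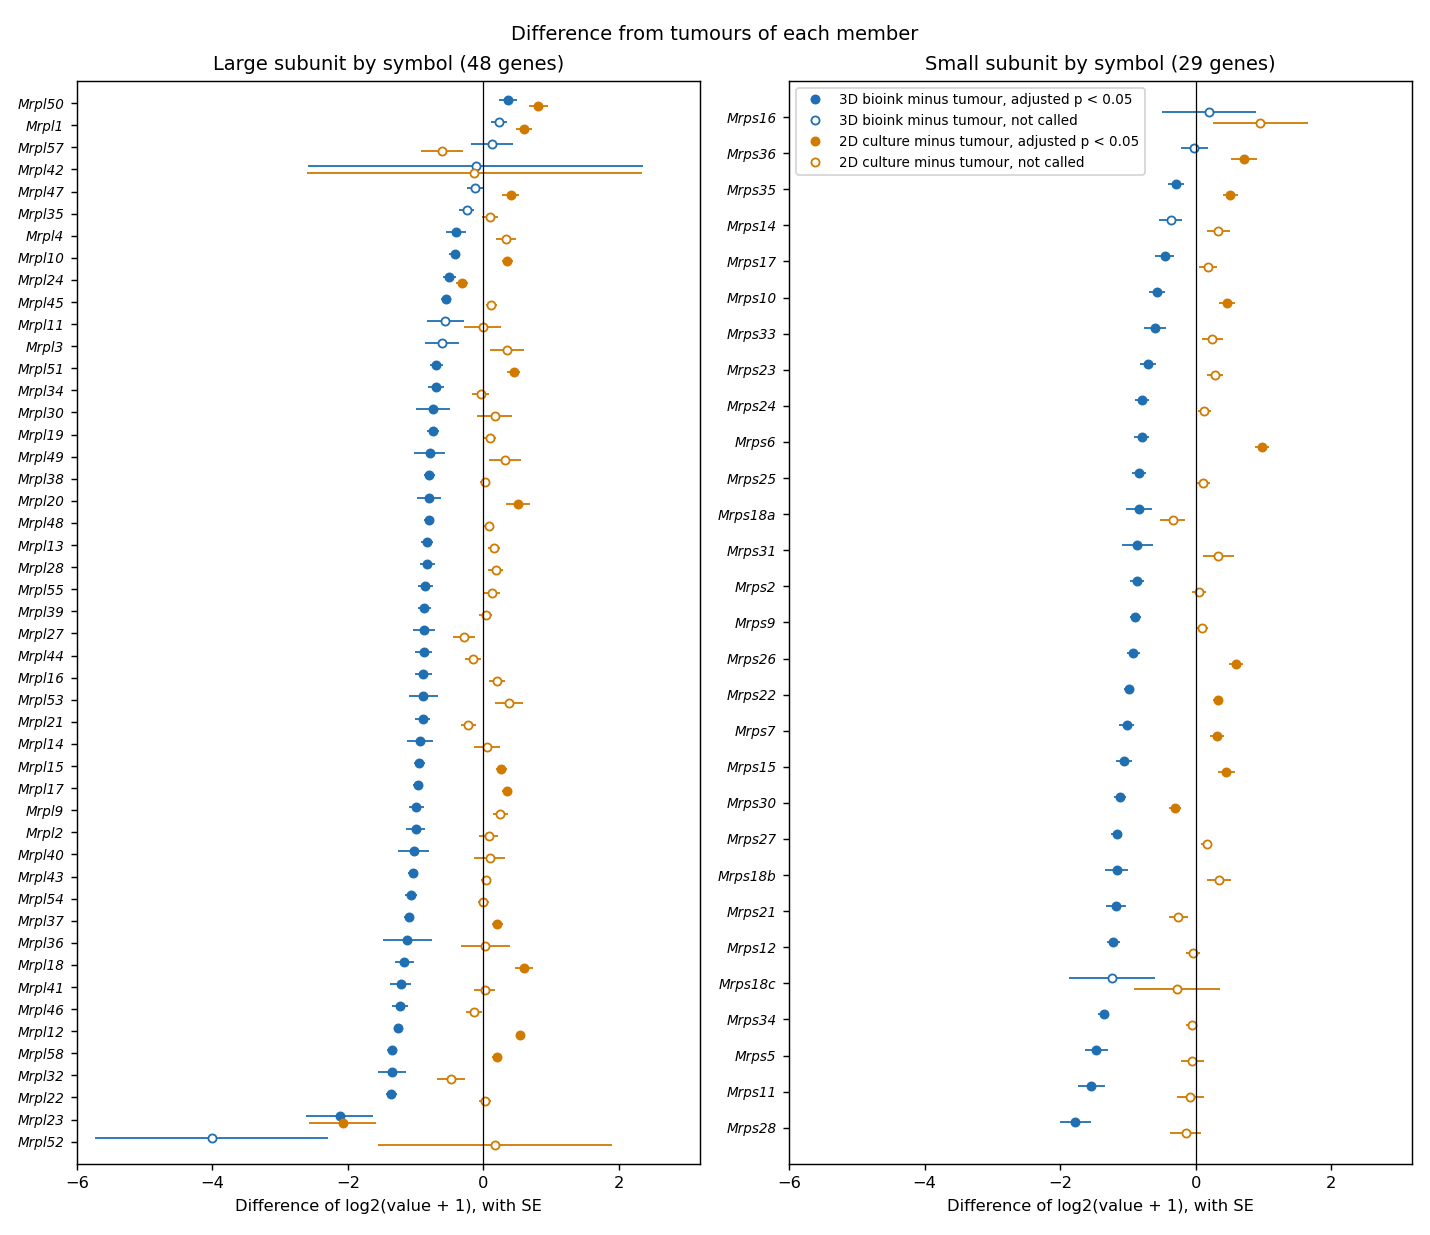
Difference from tumours in log2(value + 1), with SE, for every member in bioink (blue) and 2D culture (orange), ordered by the bioink difference; filled points passed limma's threshold. Blue points lie mostly between -0.3 and -1.8, and orange points scatter around 0, with Mrpl23 at -2.08 the exception.

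The comparison of 2D culture with tumours gave smaller differences in both directions. In the large subunit, 12 genes were higher, 2 lower and 34 not past the threshold, with a median of 0.11, and in the small subunit 8 were higher, 1 lower and 20 not, with a median of 0.18. Over all genes tested, 27.3% were higher and 27% lower, so the share of members that were higher was near that of all genes. The groups did not overlap for 22 large-subunit and 13 small-subunit genes, against 63.9% of all genes. The few lower calls depended on single libraries: without bioink replicate 1 there were 5 in the large subunit and 2 in the small. Without tumour replicate 3, 2D culture replicate 2 or 2D culture replicate 3 there was 1 in the large subunit, and without tumour replicate 1 there were 2 in the small. With single libraries left out, 23.9% to 28.9% of all genes were lower.

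Mrps6 rose the most, from 695, 694 and 720 in tumours to 1350, 1398 and 1416 in 2D culture (log2 difference 0.98, SE 0.11, adjusted p = 3.34e-05). Mrps6, at chr16:92058270-92112227, contains Slc5a3, an inositol transporter gene on the same strand, which measured 732, 744 and 804 in tumours, 2737, 2903 and 2970 on the dish and 4084, 4542 and 4457 in bioink. Reads of these genes may not be separated, and Mrps6 itself was lowest in bioink (335, 442 and 446), where Slc5a3 was highest. In the large subunit, Mrpl50 rose from 255, 195 and 212 to 389, 399 and 369 (log2 difference 0.81, adjusted p = 6.46e-04). It was also the gene called higher in bioink than in tumours (316, 251 and 281; log2 difference 0.36, adjusted p = 0.042), but there the groups overlapped and the count of higher large-subunit genes was 0 to 2 when single libraries were left out.

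Mrpl18, an RNA-binding protein of the large subunit, rose from 1437, 1676 and 1689 in tumours to 2348, 2419 and 2478 in 2D culture (log2 difference 0.60, adjusted p = 0.0042). Mrpl12 rose to 4096, 4381 and 4257 (log2 difference 0.54, adjusted p = 4.71e-05), Mrpl1 to 383, 374 and 343 (0.59, adjusted p = 0.0017), and Mrps26 to 1708, 1632 and 1622 (0.59, adjusted p = 7.12e-04). Mrps35 had a log2 difference of 0.51 and Mrps36 of 0.71. All these groups stood apart without overlap. Mrpl58 was higher by 0.19 (adjusted p = 0.025), which was lost without tumour replicate 2, 2D culture replicate 1 or 2D culture replicate 3 (adjusted p from 0.068 to 0.097).

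The lower genes in 2D culture were Mrpl23, Mrpl24 and Mrps30. Mrpl23, a tunnel-exit protein, measured 72, 109 and 72 in tumours, 25, 12 and 22 on the dish and 20, 9 and 33 in bioink. Both cultures were low, with log2 differences from tumours of -2.08 in 2D culture (adjusted p = 0.0052) and -2.12 in bioink (adjusted p = 0.0038). The call in 2D culture was lost under quantile normalization (adjusted p = 0.072). With the length trend removed the differences were -2.10 in 2D culture and -1.49 in bioink, each past the threshold. Mrps30 measured 1588, 1402 and 1409 in tumours, 1151, 1170 and 1226 on the dish and 759, 646 and 629 in bioink, a fall from tumours in each culture (log2 differences -0.31 and -1.11, adjusted p = 0.013 and 2.60e-06). Mrpl24 had a log2 difference of -0.32 in 2D culture (adjusted p = 0.017), lost without tumour replicate 3, 2D culture replicate 2 or 2D culture replicate 3 (adjusted p from 0.051 to 0.068).

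The comparison of the 2 cultures sets the gel beside the dish for the same types of cell seeded. Of the summed markers given above, those of microglia, macrophages and monocytes, astrocytes, endothelial cells and pericytes were higher in bioink without overlap, and T cell markers overlapped. The gel alone was digested with collagenase, so the gel, the digestion and the cell makeup cannot be told apart here. In bioink 42 of 48 large-subunit genes were lower and 0 higher, with a median of -0.98, and 27 of 29 small-subunit genes were lower and 0 higher, with a median of -1.0. At an unadjusted limma p under 0.05, 1 large-subunit and 0 small-subunit genes were higher. Over all genes, 32.2% were lower and 27% higher, with a median of -0.02. The groups did not overlap for 44 and 26 genes, against 67.1% of all genes, and 22 and 14 genes were at least 2-fold lower, against 12.7% of all genes. The 2 counts of 0 were 1 and 0 with the length trend removed, where 34 large-subunit and 22 small-subunit genes were lower, all of them among the genes called without that step, with medians of -0.55 and -0.76. Of all genes in that fit, 29.5% were lower and 26.8% higher. Scaling to equal upper quartiles changed the split over all genes to 35% higher and 23.2% lower, and left the subunit medians at -0.75 and -0.77.

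The leading genes included several that were also higher on the dish than in tumours. Mrpl12 measured 4096, 4381 and 4257 on the dish and 1193, 1291 and 1191 in bioink, a 3.46-fold lower level (log2 difference -1.79, adjusted p = 2.64e-08). Mrpl18 went from 2348, 2419 and 2478 to 560, 857 and 745 (log2 difference -1.76, adjusted p = 3.07e-06) and Mrps6 from the values above by -1.78 (adjusted p = 6.02e-07). Mrps15, an RNA-binding protein of the subunit's platform, measured 1064, 1051 and 1065 on the dish and 298, 411 and 419 in bioink (log2 difference -1.51, adjusted p = 3.93e-06). Mrpl58, Mrpl22, Mrps28 and Mrps26 had log2 differences of -1.55, -1.38, -1.63 and -1.51, each past the threshold. For all of them the groups stood apart. With the length trend removed, Mrpl22 was at -0.75, Mrps28 at -1.03 and Mrps15 at -0.98, each still past the threshold.

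Counted over all 9 libraries, 39 large-subunit and 23 small-subunit genes had every bioink value below every tumour and 2D culture value, against 23.4% of all genes tested. For 16 and 11 genes every 2D culture value was above all others, against 18.5%, and the full order of bioink, tumour and 2D culture held without overlap for 14 and 9 genes, against 8.29%. By calls, the commonest pattern was lower in bioink than in each other group with no call between tumour and 2D culture, in 28 large-subunit and 17 small-subunit genes. A further 9 and 7 genes, among them Mrpl12, Mrpl18, Mrpl58, Mrps6, Mrps22 and Mrps26, were also higher in 2D culture than in tumours. The share of all genes with these call patterns was not counted. Taken singly, 37.3% of all genes were lower in bioink than in tumours and 32.2% lower than in 2D culture.

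A few members departed from the rest, and 6 genes passed in no comparison: Mrpl11, Mrpl42, Mrpl52, Mrpl57, Mrps16 and Mrps18c. Mrpl52 measured 609, 582 and 695 in tumours, 549, 832 and 772 on the dish and 0, 280 and 209 in bioink. All bioink values were below the rest, but a listed 0 in replicate 1 gave a wide error (log2 difference from tumours -4.01, SE 1.72, adjusted p = 0.065). Mrpl42 was listed at 0 in 6 libraries and at 102 in a tumour, 76 in a 2D culture and 80 in a bioink library, a pattern that does not follow the groups. Mrps18c measured 132, 99 and 143 in tumours, 104, 119 and 85 on the dish and 14, 92 and 105 in bioink; the value of 14 is again from replicate 1.

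Mrpl11 was at 57, 58 and 61 in tumours and at 34, 36 and 50 in bioink, without overlap (log2 difference -0.56, adjusted p = 0.095). Mrpl57 measured 51, 75 and 74 in tumours, 31, 50 and 50 on the dish and 91, 59 and 69 in bioink, the reverse order of most members, and it did not pass. Mrps16 ranged from 6 to 46 and its groups overlapped. Per kilobase of transcript, Mrpl57 (21.2) and Mrps16 (11.3) had the lowest mean level over the 9 libraries in their subunits, and Mrpl12 (2128) and Mrps21 (1066) the highest. Within groups these ends held except that Mrps6 (1641) was above Mrps21 (1169) in 2D culture and Mrpl11 (20.7) was below Mrpl57 (25.4) in bioink.

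The S18 family has 3 mitochondrial forms, of which Mrps18b and Mrps18c occupy sites in the small subunit and Mrps18a sits in the large subunit despite its symbol. Mrps18b measured 676, 603 and 703 in tumours and 212, 341 and 349 in bioink (log2 difference -1.17, adjusted p = 2.25e-04; -0.60 with the length trend removed). Mrps18a measured 796, 667 and 606 in tumours, 551, 510 and 567 on the dish and 530, 342 and 309 in bioink. It was lower in bioink than in tumours (log2 difference -0.84, adjusted p = 0.0031; -0.23 and adjusted p = 0.31 with the length trend removed). Against 2D culture it was -0.50 (adjusted p = 0.042) with overlapping groups, lost under all 4 other scalings, and 0.11 with the length trend removed. Mrps30 also lies in the large subunit by structure. Assigned by structure, 41 of 50 large-subunit and 23 of 26 small-subunit genes were lower in bioink than in tumours, against 37.3% of all genes tested.

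Mrps36 carries the name of a ribosomal protein but is known as a subunit that anchors the alpha-ketoglutarate dehydrogenase complex. It measured 264, 217 and 156 in tumours, 391, 347 and 293 on the dish and 189, 212 and 214 in bioink. Tumour and bioink libraries overlapped (log2 difference -0.02, adjusted p = 0.93), and with the length trend removed the difference was 0.62 (adjusted p = 0.017). It was lower in bioink than in 2D culture (log2 difference -0.73, adjusted p = 0.0091), a call lost under equal upper quartiles (adjusted p = 0.058) and with the length trend removed (adjusted p = 0.81).

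Most genes classed as having a bacterial counterpart and most classed as mitochondria-specific were lower in bioink than in tumours. In the large subunit, 24 of 29 genes with a bacterial counterpart and 15 of 19 mitochondria-specific genes were lower in bioink than in tumours, with medians of -0.86 and -0.88. In the small subunit by symbol the counts were 13 of 16 and 12 of 12, with medians of -0.95 and -0.89. Those 12 genes classed as mitochondria-specific include Mrps18a, Mrps18b and Mrps30. The class is not a clean origin, since Mrps18c, of the same family as Mrps18a and Mrps18b, was counted with a bacterial counterpart. Of the 12, Mrps18a and Mrps30 lie in the large subunit by structure. Among all genes tested, 37.3% were lower in bioink than in tumours. Members with an ETS match in the promoter window were lower in 19 of 24 cases (median -0.94) and those without in 36 of 44 (median -0.86). With a YY1 match 10 of 12 were lower (median -1.06), against 45 of 56 without (median -0.88). With an NRF1 match 7 of 7 were lower (median -0.99), against 48 of 61 without (median -0.865). The differences between these subgroups were not tested.

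Genome position gives a further shared feature. Members lie on 17 chromosomes, and 18 of 77 (23.4%) have a coding gene on the opposite strand that starts within 1000 bases upstream and runs away from them. This held for 6.78% of 21938 coding genes in GENCODE M21. Pairs whose starts overlap, such as Mrps11 and Mrpl46, were not counted. Of the 18 partners, 17 were tested, and in bioink against tumours 10 were lower and 3 higher, with a median of -0.60. Among all genes tested, 37.3% were lower and 27.1% higher in that comparison. Mrps12 and its partner Sars2, the mitochondrial seryl-tRNA synthetase, start 172 bases apart and had log2 differences of -1.21 and -1.16. Mrps18b and Ppp1r10, 45 bases apart, moved in opposite directions, with differences of -1.17 and 0.56, and so did Mrps5 (-1.47) and Zfp661 (0.68). A total of 34 members overlap another annotated gene, 31 of them on the opposite strand, and whether counting used strand is not given in the sources used here. Of the 43 members without such an overlap, 32 were lower in bioink than in tumours and 1 higher.

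Other genes of mitochondrial translation were taken from lists of general knowledge. The 5 ribosomal proteins with other names gave 3 lower and 1 higher in bioink against tumours, beside 37.3% and 27.1% of all genes tested. Without bioink replicate 1, 4 were lower and 1 higher, beside 37.1% and 26.2% of all genes. With the length trend removed, 2 were lower and 1 higher, beside 33.3% and 26.8% of all genes in that fit. The median of the 5 went from -0.59 to 0.07 with that step. Aurkaip1, a small-subunit protein, measured 1786, 2069 and 2126 in tumours and 564, 813 and 734 in bioink (log2 difference -1.51, adjusted p = 3.56e-06), and Gadd45gip1 and Chchd1 were lower too, with differences of -1.22 and -0.59. Ptcd3 went the other way, from 421, 281 and 396 in tumours to 1077, 1063 and 970 on the dish and 531, 502 and 532 in bioink (log2 differences 1.52 and 0.53, adjusted p = 9.22e-06 and 0.0075). Dap3, a GTP-binding protein of the small subunit, did not pass (-0.26, adjusted p = 0.090). All 5 were lower in bioink than in 2D culture, against 32.2% of all genes tested. With the length trend removed 3 were (median -0.89), against 29.5% of all genes in that fit.

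Among factors that build or run the ribosome, calls went in both directions, and over all genes tested 37.3% were lower and 27.1% higher in bioink than in tumours. Of 27 assembly factors, 14 were lower in bioink than in tumours, 3 higher and 10 not past the threshold, with a median of -0.49. With the length trend removed, 7 were lower and 5 higher, shares no larger than those of all genes in that fit (33.3% and 26.8%). The methyltransferase Mrm3 measured 393, 398 and 407 in tumours and 159, 185 and 154 in bioink (log2 difference -1.27, adjusted p = 8.46e-06), whereas Fastkd2, an RNA-binding protein needed for the large ribosomal RNA, measured 102, 147 and 119 against 343, 199 and 261 (1.10, adjusted p = 0.0012). Noa1, a GTPase, was 2.73-fold lower in bioink than in 2D culture (log2 difference -1.45, adjusted p = 1.82e-07), and Mterf3 was higher by 0.87. Trmt2b was lower in 2D culture than in tumours, with a difference of -0.41. Of 13 translation factors, 8 were lower and 3 higher in bioink than in tumours. Among them the recycling factor Mrrf, the elongation factor Tsfm and the insertase Oxa1l differed by -1.09, -1.09 and -1.14, and the elongation factor Guf1 by 1.16. Of 21 genes of mitochondrial aminoacyl-tRNA synthesis, 11 were lower and 2 higher (median -0.62), with Tars2 at -1.23. Fars2 was lower in 2D culture (-1.31, adjusted p = 0.0052; 0.060 under quantile normalization) and Cars2 was lower in bioink than in 2D culture (-1.78). Mars2 was at 0.73 in bioink against tumours, which was -0.06 with the length trend removed.

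**Figure D5:**
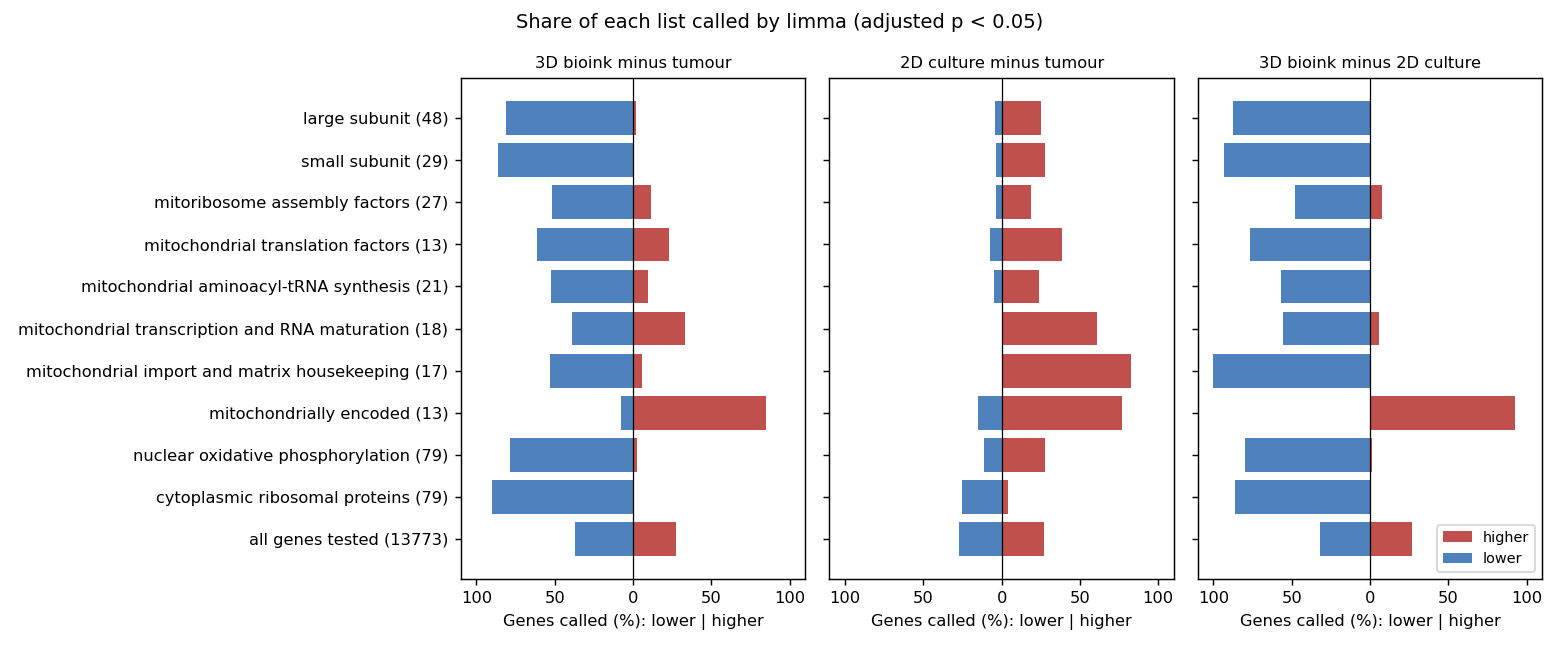
Percentage of the tested genes of each list that limma called lower (left, blue) or higher (right, red) in each comparison, with all 13773 tested genes in the bottom row. Both subunits and the cytoplasmic ribosomal proteins lean far to lower in the panels with bioink, and mitochondrially encoded genes lean to higher in all 3 panels.

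Of the 13 protein-coding genes of the mitochondrial genome, which these ribosomes translate, most were higher in bioink, and ND6 was lower than in tumours. In bioink against tumours 11 were higher, 1 lower and 1 not past the threshold, with a median log2 difference of 2.16, and in 2D culture against tumours 10 were higher and 2 lower (median 1.34). In bioink against 2D culture 12 were higher and 0 lower (median 0.97; 0 also at an unadjusted p under 0.05), with ATP8 at 1.34. Among all genes tested, 27.1%, 27.3% and 27% were higher in these comparisons, in that order, and 37.3%, 27% and 32.2% lower. Without bioink replicate 1 the counts of mitochondrially encoded genes higher and lower than in 2D culture were 10 and 0, against 26.2% and 32.1% of all genes. CYTB, cytochrome b, measured 6325, 6191 and 6058 in tumours, 15595, 15591 and 15751 on the dish and 45873, 28848 and 31900 in bioink, with no overlap (bioink minus tumour 2.49, SE 0.14, adjusted p = 2.58e-07); it was named after its values were seen. ND4L rose the most, from 469, 144 and 107 in tumours to 3360, 2537 and 2081 in bioink (3.75, adjusted p = 6.21e-05). ND6, which is encoded on the strand opposite to the rest, measured 8109, 10598 and 10147 in tumours, 3398, 3485 and 3241 on the dish and 7005, 6287 and 6581 in bioink. It was lower than in tumours in both (log2 differences -1.50 and -0.53), the latter lost under quantile normalization (-0.11, adjusted p = 0.31). These genes have no transcript length in the annotation by the names the table uses, so the length step was not run on them.

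Of 18 genes of mitochondrial transcription and RNA maturation, 7 were lower and 6 higher in bioink than in tumours, shares near the 37.3% and 27.1% of all genes tested. In 2D culture 11 were higher than in tumours and 0 lower (1 lower at an unadjusted p under 0.05), against 27.3% and 27% of all genes. Tefm, the elongation factor of the mitochondrial polymerase, measured 109, 118 and 123 in tumours, 165, 176 and 176 on the dish and 30, 48 and 60 in bioink (bioink minus tumour -1.38, adjusted p = 9.25e-04). Lrpprc, which stabilises mitochondrial messengers, rose from 528, 652 and 673 in tumours to 1690, 1774 and 1759 on the dish and 1005, 1215 and 1131 in bioink (log2 differences 1.50 and 0.86). Mterf2 was at 33, 24 and 25 in tumours and 144, 57 and 56 in bioink (1.48, adjusted p = 0.010), the highest value again in replicate 1.

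Among 9 regulators of mitochondrial biogenesis, 4 were lower and 1 higher in bioink than in tumours, against 37.3% and 27.1% of all genes tested. Gabpa, a subunit of the ETS factor GABP, measured 1090, 1046 and 1068 in tumours, 2053, 1787 and 1994 on the dish and 1545, 1859 and 1861 in bioink (log2 differences 0.86 and 0.71, adjusted p = 1.52e-05 and 4.93e-05). Nrf1 measured 1039, 1061 and 1139, then 1313, 1414 and 1430, then 645, 828 and 812 (0.36 and -0.51, adjusted p = 0.011 and 0.0012). The coactivator Ppargc1b fell in bioink by 1.26 on the log2 scale from tumours. Yy1 did not pass against tumours (0.04, adjusted p = 0.57), and it was higher by 0.21 in bioink than in 2D culture (adjusted p = 0.018), but -0.11 with the length trend removed.

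Cytoplasmic ribosomal proteins, nuclear genes of oxidative phosphorylation and genes of import and matrix housekeeping had median transcript lengths of 764, 742 and 1615 bases, against 1259 and 1063.5 for the large and small subunits. Of 79 cytoplasmic ribosomal protein genes, 71 were lower and 0 higher (0 also at an unadjusted limma p under 0.05) in bioink than in tumours, with a median of -0.98. Among all genes tested, 37.3% were lower and 27.1% higher. With the length trend removed, 52 of 78 cytoplasmic genes were lower and 1 higher, with a median of -0.46. Of 79 nuclear genes of oxidative phosphorylation, 62 were lower and 2 higher (median -0.73), and with the trend removed 28 were lower and 10 higher (median -0.09), the lower share being near the 33.3% of all genes in that fit. Of 17 genes of mitochondrial import and matrix housekeeping, 14 were higher in 2D culture than in tumours and 0 lower (0 also at an unadjusted limma p under 0.05), and all 17 were lower in bioink than in 2D culture. Among all genes tested, 27.3% were higher and 27% lower in 2D culture than in tumours, and 32.2% were lower in bioink than in 2D culture. In that list the chaperone Hspd1 measured 6535, 6217 and 6434 in tumours, 15322, 15525 and 14767 on the dish and 8251, 6614 and 7371 in bioink. Timm50, of the inner membrane translocase, had a log2 difference of -1.26 in bioink against tumours. The import pore Tomm40 was 2.91-fold lower in bioink than in 2D culture (log2 difference -1.54, adjusted p = 4.56e-08).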

How the data were processed

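The deposited values are scores: whole numbers per gene symbol, taken as counts that the authors had normalized and rounded, since the table is named as normalized and low values in some libraries leave gaps, as rounded quotients do. The submitters' processing notes list DESeq2 1.24.0, DESeq, RSEM, kallisto and the build mm10, with no role or order. Depth is unknown, so no counting interval is given, and a gene without signal is said to be listed at 0. The scores were transformed to log2(value + 1), with a pseudocount of 1. The 13773 of 20778 genes with a mean of at least 10 were tested with limma 3.58.1 (R 4.3.3; lmFit, contrasts, eBayes with a trend) in a single fit of all 9 libraries, with Benjamini-Hochberg adjustment over all genes and a threshold of 0.05. The script was tested on simulated data. A count model was not run, since the values are not counts. The labels do not say whether libraries of a group came from separate mice or cultures, so each p-value covers only the spread among the libraries at hand, and that spread may be technical.

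Transcript lengths are medians over GENCODE M21 basic protein-coding transcripts, found for 13660 of the genes tested (99.2%), and promoter windows are RefSeq's. Replicate numbers were not used as pairs, since the labels do not say that groups share them. Same-numbered libraries of different groups correlated between -0.033 and 0.08 in their deviations from group means, and differently numbered ones between -0.063 and 0.052. Between tumour and bioink the same-numbered values were 0.034, 0.048 and 0.080, and the others were 0.009 or lower. Whether the numbers mark pairs cannot be settled from these values.

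The members and lists were chosen with earlier results of these data known. Genes named are the 4 largest rises and falls per subunit and comparison among called genes whose groups do not overlap, the highest and lowest level per kilobase, a fixed set (Mrpl3, Mrpl12, Mrpl41, Mrpl44, Mrpl45, Mrpl48, Mrpl58, Mrps12, Mrps18a, Mrps18b, Mrps18c, Mrps22, Mrps30, Mrps34 and Mrps36), and the largest rise and fall of each list in each comparison. Members called in no comparison, neighbours, and CYTB, Dap3, Chchd1, Gadd45gip1 and Mrps11's partner were named after their values were seen. Alternatives covered pseudocount, filter, scaling, fit, array weights, subunit by structure, a replicate block, each library left out and, added after seeing the data, transcript length.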

Additional observations from a re-analysis of the deposited data

How the results depend on the processing

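Every subunit median kept its sign under every alternative run. Bioink minus tumour, the large and small medians (-0.88 and -0.89) were -0.62 and -0.63 at equal library sums, -0.64 and -0.65 at equal upper quartiles, -0.77 and -0.78 by median of ratios, -0.70 and -0.73 after quantile normalization, and -0.41 and -0.48 with the length trend removed. Bioink minus 2D culture (-0.98 and -1.0), they were -0.78 and -0.80, -0.75 and -0.77, -0.88 and -0.90, -0.91 and -1.09, and -0.55 and -0.76 in that order, -0.93 and -0.94 with array weights, and -1.10 for the small subunit by structure. In 2D culture minus tumour (0.11 and 0.18), they were 0.17 and 0.25 at equal sums and 0.20 and 0.24 after quantile normalization; the large median was 0.14 at a mean of at least 100, and the small 0.23 with the length trend removed.

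Small counts moved most. Higher large-subunit genes in bioink against tumours numbered 2 under each of the 4 scalings and 0 with the 6 libraries compared, and 1 small-subunit gene was higher with the length trend removed. Of all genes, 30.2% to 35.5% were higher under those scalings, 25.1% with the 6 libraries and 26.8% with the length trend removed. Against 2D culture 1 large-subunit gene was higher under equal sums, equal upper quartiles, median of ratios, no intensity trend, array weights and the length step. Of all genes, 26.8% to 35% were higher in those fits. Lower large-subunit genes in 2D culture numbered 1 at a mean of at least 100 and after quantile normalization and 4 with 6 libraries. Lower small-subunit genes numbered 2 with 6 libraries and 0 by structure. Of all genes, 28.6% were lower at a mean of at least 100, 22.2% after quantile normalization, 28.1% with 6 libraries and 27% in the main fit. Leaving out 1 library at a time gave 0 to 2 higher large-subunit genes and medians of -0.91 to -0.83 and -0.95 to -0.89 (bioink minus tumour), 1 to 5 and 1 to 2 lower genes and medians of 0.090 to 0.147 and 0.12 to 0.23 (2D culture minus tumour), and medians of -1.02 to -0.92 and -1.18 to -0.97 (bioink minus 2D culture). In those fits 24.2% to 26.6% of all genes were higher in bioink than in tumours, and 23.9% to 28.9% lower in 2D culture than in tumours. Among genes named by rule, in the comparisons they were named for, the length step and no other alternative gave the opposite sign, with a call before or after, for Mrps36 (0.62) and Mars2 (-0.058) in bioink minus tumour and Mrps18a (0.11) and Yy1 (-0.11) in bioink minus 2D culture. It also turned Mrpl24 in bioink minus 2D culture from -0.19 (adjusted p = 0.11) to 0.24 (adjusted p = 0.045), and Mrpl42 in bioink minus tumour, not called either way, from -0.12 to 0.52. Of the other values for named genes under alternatives, 2236 kept their call or its absence, 44 lost the call and 12 gained it. For values not called either way, the sign was not compared. The cause of these changes was not tested.

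With the replicate number as a block, 40 large-subunit and 26 small-subunit genes were lower in bioink than in tumours, against 39 and 25, and 43 and 27 lower than in 2D culture. Of all genes in that fit, 37.1% were lower than in tumours and 31.9% lower than in 2D culture. Libraries correlated best with their own number in 9 of 18 cases, which does not settle whether the numbers mark pairs. The main fit did not use them as pairs. Unknown depth limits what can be said of members near 0, such as Mrpl42 and Mrps16.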
